A study of Macaca mulatta with 27 samples.

Results

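The genes described here are 9 transcription factors that drive or accompany the step from dividing progenitor to neuron, namely NEUROG1, NEUROG2, NEUROD1, NEUROD4, INSM1, EBF1, EBF3, POU3F2, and ONECUT2, called proneural factors below. They were taken by name as a functional group, with earlier results of these data known, and all 9 were found among the 17967 gene symbols of the count tables. They were followed in 27 bulk RNA-seq libraries of rhesus pluripotent stem cells (PSCs), 6 of primed cells and 3 of cells cultured in each of 7 protocols meant to bring them to the naive state. In 2 of these protocols, t2iLGöY and LCDM (EPS), all 9 factors were higher than in primed cells.

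The libraries come from cells that the labels call rhesus ESCs, either primed or naive, and the values are reads counted per gene symbol. According to the study's methods, the cells were LyonES-tGFP-(S3), a single clone of a rhesus ESC line, so that all groups, primed included, carried a tauGFP transgene under the ubiquitous CAG promoter and a lentiviral STAT3-ERT2, a STAT3 that tamoxifen activates. Primed cells were passaged mechanically in clumps, whereas reprogrammed cells were dissociated to single cells, so protocol and passaging cannot be told apart. Nothing in the labels says that the libraries of a group came from separate cultures, so the p-values measure only the spread between these libraries, which may be technical.

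In TL2i, tamoxifen was given with LIF and with inhibitors of MEK and GSK3β. In TL-CDK8i, which the study writes TL-CDK8/19i, both inhibitors were replaced by CNIO-47799, an inhibitor of the kinases CDK8 and CDK19. The study states that the other protocols were used without tamoxifen, which left STAT3-ERT2 inactive. When TL2i or TL-CDK8i is compared with them, tamoxifen and the rest of the medium cannot be told apart. E-NHSM and NHSM-v are variants of naive human stem cell medium, 4i/L/b combines kinase inhibitors with LIF and basic FGF, t2iLGöY combines titrated MEK and GSK3 inhibitors with LIF, the protein kinase C inhibitor Gö6983, and a ROCK inhibitor, and LCDM (EPS) combines LIF with CHIR99021, dimethindene, and minocycline. The full recipes are not given in the sources used here.

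Neurogenins and NeuroD factors are basic helix-loop-helix (bHLH) proteins that bind E-box DNA as dimers with E proteins, commit neural progenitors to a neuronal fate, and raise Notch ligands that restrain neighbouring cells. NeuroD factors, INSM1, and EBF factors generally follow the neurogenins and carry the cell through cell-cycle exit and differentiation. POU3F2 and ONECUT2 are POU-domain and cut-homeodomain factors of neural progenitors and young neurons. Several of these genes have other uses, INSM1 and NEUROD1 in endocrine cells, EBF1 in B cells and stroma, and ONECUT2 in liver and pancreas. Markers of endocrine, B, and stromal cells are therefore given, and no list of liver markers was read.

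Library totals ran from 7111886 to 20760914 counts. Levels are given as CPM, read counts scaled to the TMM-adjusted size of each library. The floor of a library was set at 3 counts, worth 0.141 to 0.429 CPM. Intervals and floors cover counting error only. The 6 primed columns carry the letters J and K with 3 libraries each, and the labels do not settle which set either letter stands for. POU5F1 and NANOG, defining markers of pluripotent cells, were at or near 0 in several of the protocols labelled naive. The mean level of POU5F1 was 1182 CPM in primed cells, 1365 CPM in E-NHSM, and 502 CPM in TL-CDK8i, but it was 6.44 CPM in TL2i, 3.16 CPM in LCDM (EPS), 1.17 CPM in t2iLGöY, 0.900 CPM in 4i/L/b, and 0.290 CPM in NHSM-v. NANOG was at 0 in the libraries of NHSM-v and t2iLGöY. Other markers were kept in part, with SOX2 at 329 CPM in LCDM (EPS) against 271 CPM in primed cells (adjusted p = 0.0954) and LIN28A at 271 CPM in TL2i against 573 CPM (adjusted p = 6.29e-06).

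Across the 7 comparisons with primed cells, the proneural factors differed in number called higher, from 0 in E-NHSM to 9 in t2iLGöY and LCDM (EPS). In E-NHSM, 1 factor was called higher with DESeq2, with no filter on low counts, with all 8 groups in one fit, and without E-NHSM replicate 1. All comparisons share the same 6 primed libraries, so they are not independent of one another. In bulk RNA, fewer cells of a type and less RNA per cell cannot be told apart, and this holds for every level below. A factor was tested where it passed edgeR's filter on low counts, and called where its adjusted p from the quasi-likelihood test was under 0.05. NEUROG1, NEUROD1, NEUROD4, and INSM1 had 0 counts in all 6 primed libraries, and NEUROG2 and POU3F2 had few, so these 6 factors passed the filter only through the libraries in which they were high and had to differ there. Their calls therefore say little beyond the levels themselves.

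In E-NHSM, 3 of the 9 factors were tested, 0 rose, and 1 fell, beside 11.1% of all tested genes called higher and 15.1% called lower. In TL-CDK8i, 4 were tested and 1 rose, beside 22.3% of all tested genes called higher and 23.8% called lower. In TL2i, 6 were tested and 3 rose, beside 25.6% higher and 25.2% lower, and in 4i/L/b, 6 were tested and 3 rose, beside 26.6% higher and 29% lower. The 3 factors that rose were INSM1, NEUROD4, and POU3F2 in both protocols. In NHSM-v, 8 were tested and 6 rose, beside 28% higher and 30.6% lower. In t2iLGöY, 9 were tested and 9 rose, beside 27.1% higher and 27.2% lower, and in LCDM (EPS), 9 were tested and 9 rose, beside 28.2% higher and 28.9% lower. No factor was called lower outside E-NHSM. In 4i/L/b and TL2i, none of EBF1, EBF3, and ONECUT2, the factors with reads in every primed library, was called.

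**Figure D1:**
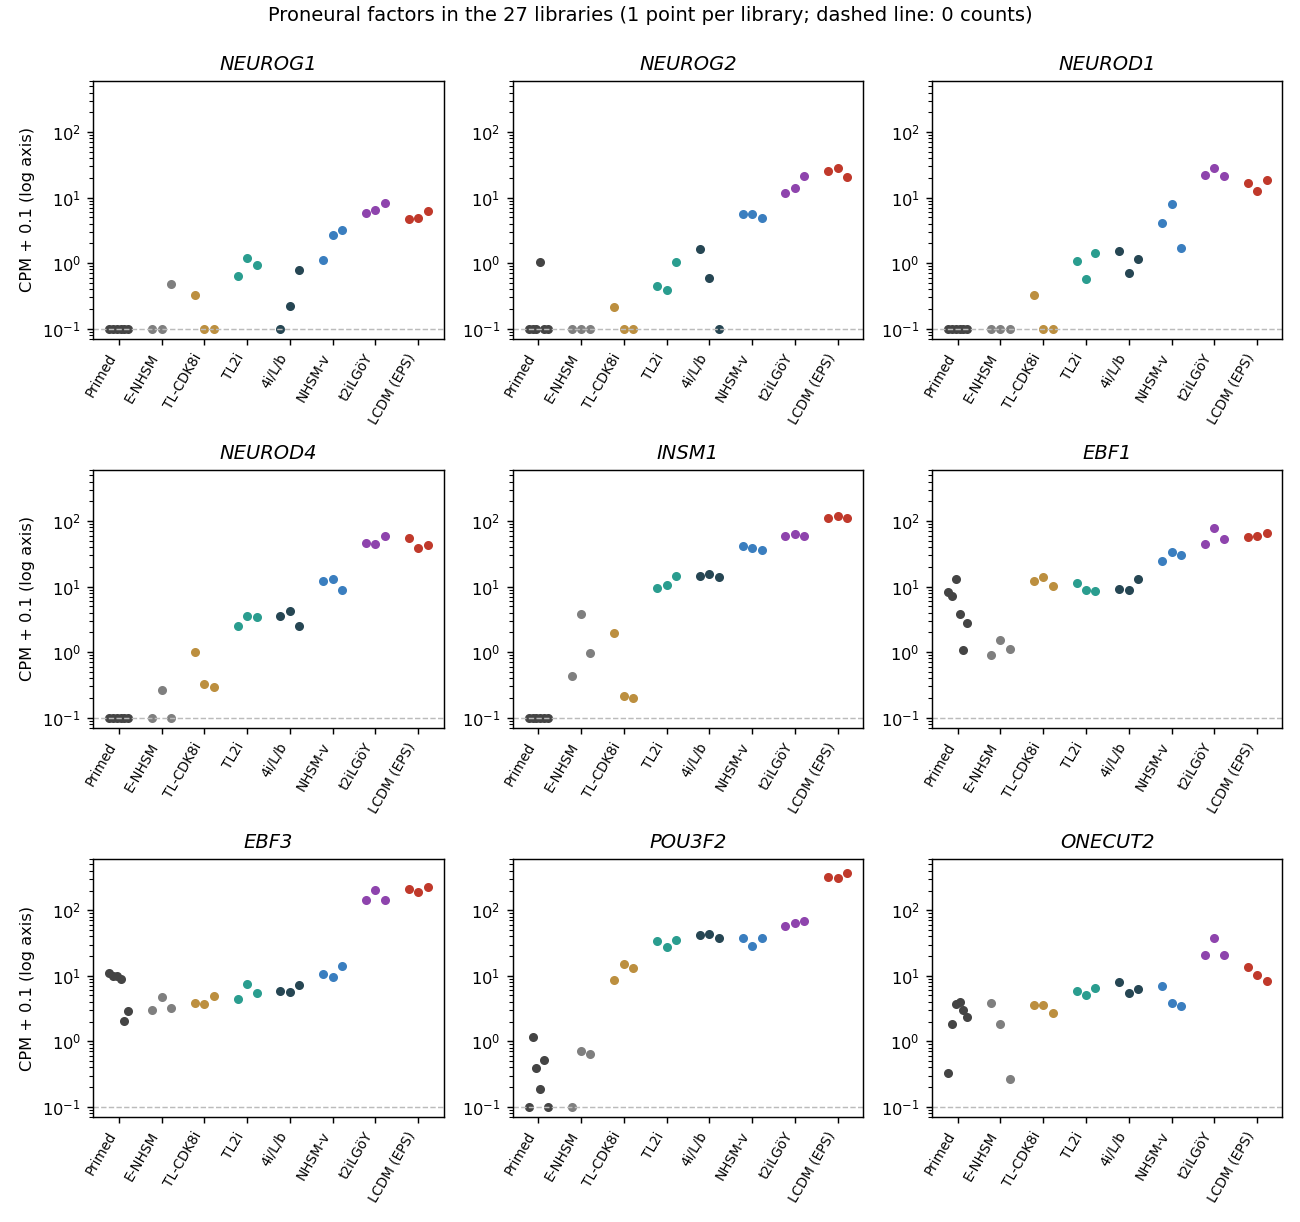
Level of each proneural factor in each of the 27 libraries, as CPM plus 0.1 on a log axis, with the 8 groups along the horizontal axis; each point is a library, and the dashed line marks 0 counts. The t2iLGöY and LCDM (EPS) libraries lie above every primed library for all 9 factors.

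NEUROG1 and NEUROG2, the neurogenins, stand at the head of the neuronal programme in cranial ganglia, spinal cord, and cortex. NEUROG1 was at 5.80, 6.40, and 8.16 CPM in the t2iLGöY libraries and at 4.61, 4.71, and 6.23 CPM in those of LCDM (EPS), against 0 counts in the primed libraries. With each primed library set to its floor, it was at least 22.4-fold higher in t2iLGöY (adjusted p = 0.000113) and, in LCDM (EPS), at least 17.1-fold (adjusted p = 0.00018). The 3 NHSM-v libraries held 1.01, 2.57, and 3.08 CPM. All 3 lie above the primed libraries, but the gene did not pass the filter in that comparison and was not tested. In the other protocols, NEUROG1 had 42 counts in TL2i, 8 in 4i/L/b, 7 in E-NHSM, and 2 in TL-CDK8i, summed over 3 libraries each.

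NEUROG2 was at 20.4, 25.0, and 28.4 CPM in LCDM (EPS), at 11.7, 13.8, and 21.4 CPM in t2iLGöY, and at 4.75, 5.53, and 5.56 CPM in NHSM-v. These 9 libraries lie above the primed libraries, which held 0 counts except K1, with 11 counts or 0.941 CPM. The log2 fold change was 7.08 (SE 0.82, adjusted p = 5.09e-06) in LCDM (EPS), 6.47 (SE 1.01, adjusted p = 6.7e-05) in t2iLGöY, and 4.87 (SE 1.29, adjusted p = 0.00442) in NHSM-v. These fold changes rest on the reads of K1. Without it, the other 5 primed libraries were at 0, and NEUROG2 was at least 78.8-fold higher in LCDM (EPS), 50.0-fold higher in t2iLGöY, and 16.9-fold higher in NHSM-v, with adjusted p = 6.94e-07, 5.17e-06, and 0.00024. In TL2i and 4i/L/b it overlapped the primed range, with at most 13 and 16 counts in a library, and it had 0 counts in E-NHSM and 1 count in TL-CDK8i.

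NEUROD1 and NEUROD4, the NeuroD factors, are classically switched on after the neurogenins and act in cells that are leaving division. NEUROD1 was at 21.4, 22.03, and 28.0 CPM in t2iLGöY, at 12.5, 16.3, and 18.4 CPM in LCDM (EPS), and at 1.58, 3.95, and 7.82 CPM in NHSM-v. Relative to their mean, the NHSM-v libraries spread more widely than those of the other 2 protocols. Relative to the floor of the primed libraries, NEUROD1 was at least 78.6-fold higher in t2iLGöY (adjusted p = 3.61e-07), 51.9-fold higher in LCDM (EPS) (adjusted p = 2.8e-06), and 14.7-fold higher in NHSM-v (adjusted p = 0.000513). In 4i/L/b and TL2i its means were 1.04 ± 0.417 and 0.930 ± 0.441 CPM (SD, n = 3), above the primed libraries in all 6 cases but too low to be tested. E-NHSM had 0 counts, which allows up to 3 per library, and TL-CDK8i had 2.

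NEUROD4 was the bHLH factor called in the most protocols, 5 of the 7. It was at 44.7, 45.5, and 58.4 CPM in t2iLGöY, at 38.1, 42.8, and 54.2 CPM in LCDM (EPS), and at 8.80, 12.2, and 13.1 CPM in NHSM-v. It was also found in TL2i, at 2.40, 3.32, and 3.44 CPM, and in 4i/L/b, at 2.41, 3.46, and 4.13 CPM. All 15 libraries lie above the primed ones, which held 0 counts. The lower bounds on the fold change were 164 in t2iLGöY (adjusted p = 1.56e-08), 149 in LCDM (EPS) (adjusted p = 4.91e-08), 37.5 in NHSM-v (adjusted p = 9.75e-06), 11.0 in 4i/L/b (adjusted p = 0.000628), and 10.1 in TL2i (adjusted p = 0.000714). The TL-CDK8i libraries held 2 to 8 counts and the E-NHSM libraries 0 to 3.

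INSM1, a zinc-finger factor, takes intermediate progenitors out of the cell cycle and is also a general mark of endocrine and neuroendocrine cells. It was at 112, 112, and 119 CPM in LCDM (EPS), at 58.4, 59.96, and 63.4 CPM in t2iLGöY, and at 35.8, 38.5, and 41.5 CPM in NHSM-v. In 4i/L/b it was at 14.0, 14.5, and 15.4 CPM, and in TL2i at 9.41, 10.4, and 14.6 CPM. No primed library held a count, and the groups do not overlap. INSM1 was at least 378-fold higher in LCDM (EPS) (adjusted p = 1.31e-09), 200.1-fold higher in t2iLGöY (adjusted p = 5.75e-09), 127-fold higher in NHSM-v (adjusted p = 2.24e-08), 48.3-fold higher in 4i/L/b (adjusted p = 5.4e-06), and 37.8-fold higher in TL2i (adjusted p = 1.44e-05). In E-NHSM it was at 0.330, 0.861, and 3.78 CPM, with 68 of the 91 counts in replicate 2, and in TL-CDK8i 16 of the 18 counts were in replicate 1. Both groups lie above the primed libraries, but neither was tested. The study lists INSM1 and POU3F2 among genes it picked on these same libraries, so the direction of both is no independent evidence.

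EBF1 and EBF3 are early B-cell factors, helix-loop-helix proteins that act downstream of neurogenins in the migration and differentiation of young neurons. Unlike the bHLH factors, both had reads in every primed library. EBF1 ran from 0.968 to 12.9 CPM in primed cells, with a median of 5.44 CPM. The primed columns differ by letter, with 7.12 to 12.9 CPM in the J libraries and 0.968 to 3.77 CPM in the K libraries, which do not overlap. EBF1 was at 56.9, 59.2, and 66.6 CPM in LCDM (EPS), at 45.3, 53.3, and 79.1 CPM in t2iLGöY, and at 24.6, 30.5, and 34.2 CPM in NHSM-v. All 9 libraries lie above all 6 primed ones. The log2 fold change was 3.41 (SE 0.48, adjusted p = 3.49e-05), 3.39 (SE 0.49, adjusted p = 3.59e-05), and 2.33 (SE 0.51, adjusted p = 0.00118), in the same order. Against the J libraries alone it was 2.73, 2.69, and 1.68, and against the K libraries alone 4.66, 4.63, and 3.59, with every adjusted p under 0.05.

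EBF1 was the single proneural factor that fell in a protocol. In E-NHSM it was at 0.801, 1.02, and 1.45 CPM, overlapping the primed range through library K2 alone, and the log2 fold change was -2.44 (SE 0.77, adjusted p = 0.0252). The call is fragile. It was lost without primed J1 (adjusted p = 0.0547), without E-NHSM replicate 1, 2, or 3 (adjusted p = 0.0988, 0.0563, and 0.0867), and against the K libraries alone, where the log2 fold change was -1.17 (adjusted p = 0.379). In 4i/L/b, TL2i, and TL-CDK8i the means of EBF1 were 10.3 ± 2.52, 9.37 ± 1.49, and 11.9 ± 1.88 CPM (SD, n = 3), and the adjusted p-values were 0.291, 0.361, and 0.181. Against the K libraries alone, EBF1 was called higher in all 3, with log2 fold changes of 2.05, 1.93, and 2.23 (adjusted p = 0.00255, 0.00369, and 0.00171), and against the J libraries alone in none, with 0.12, 0.01, and 0.31. In TL-CDK8i it was also called without primed J3 (log2 fold change 1.35, adjusted p = 0.0427) and with all 8 groups in one fit (1.07, adjusted p = 0.0187).

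EBF3 was called higher in LCDM (EPS) and t2iLGöY and in no other protocol. It was at 192, 212, and 226 CPM in LCDM (EPS) and at 142, 145, and 201 CPM in t2iLGöY, but between 3.57 and 13.8 CPM in the libraries of TL-CDK8i, TL2i, 4i/L/b, and NHSM-v. The primed libraries ran from 1.94 to 10.8 CPM with a median of 9.36 CPM, and overlap each of the latter 4 protocols. The log2 fold change was 4.88 (SE 0.36, adjusted p = 5.8e-08) in LCDM (EPS) and 4.53 (SE 0.38, adjusted p = 1.1e-07) in t2iLGöY, and it lay between -1.05 and 0.60 in the other 5 protocols, with adjusted p from 0.188 to 0.678. Some of these differences passed the test under other settings. EBF3 was called higher in NHSM-v against the K libraries alone (1.30, adjusted p = 0.0358), and lower in E-NHSM (-1.52, adjusted p = 0.023) and TL-CDK8i (-1.35, adjusted p = 0.0133) against the J libraries alone. With all 8 groups in one fit it was also called lower in E-NHSM (-1.003, adjusted p = 0.0216).

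**Figure D2:**
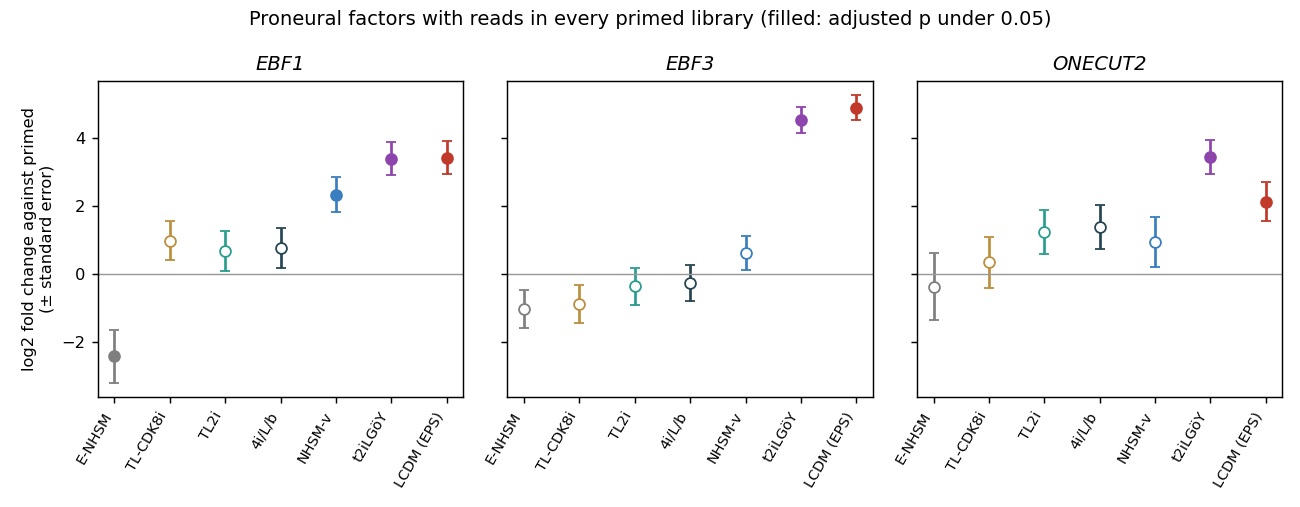
Log2 fold change against the 6 primed libraries, with its standard error, for the 3 proneural factors that had reads in every primed library; the protocols are along the horizontal axis, and filled points are those with an adjusted p under 0.05. EBF3 and ONECUT2 rose in t2iLGöY and LCDM (EPS), and EBF1 also rose in NHSM-v and fell in E-NHSM.

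POU3F2, also called BRN2, is a POU-domain factor of neural progenitors and migrating neurons and a standard ingredient of cocktails that convert fibroblasts to neurons. It rose in every protocol except E-NHSM. LCDM (EPS) stood apart, at 312, 317, and 366 CPM, followed by t2iLGöY, at 57.9, 63.4, and 69.6 CPM. The 4i/L/b libraries held 38.1, 41.9, and 43.8 CPM, those of NHSM-v 28.8, 37.3, and 37.7 CPM, and those of TL2i 27.6, 34.1, and 34.8 CPM, while those of TL-CDK8i held 8.37, 12.9, and 14.8 CPM. The primed libraries held at most 10 counts, with a lowest level of 0, a median of 0.186, and a highest level of 1.08 CPM, and none of these 18 libraries overlaps them. The log2 fold change was 10.05 (SE 0.32, adjusted p = 1.12e-11) in LCDM (EPS), 7.69 (SE 0.50, adjusted p = 7.91e-09) in t2iLGöY, and 5.18 (SE 0.84, adjusted p = 0.000159) in TL-CDK8i. It was 6.98 in 4i/L/b, 6.75 in NHSM-v, and 6.67 in TL2i, with adjusted p from 1.69e-07 to 6.51e-07. Primed library J2 holds 10 of the 19 primed counts, and without it the fold changes of the 6 protocols were 10.87, 8.51, 6.06, 7.85, 7.63, and 7.52, in the order given. E-NHSM held 0, 0.538, and 0.612 CPM, within the primed range, and POU3F2 was too low to be tested there.

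ONECUT2, a cut-homeodomain factor of retinal and motor neurons and of liver and pancreas, rose in t2iLGöY and LCDM (EPS). It was at 20.6, 20.7, and 37.0 CPM in t2iLGöY and at 8.23, 10.1, and 13.4 CPM in LCDM (EPS), against a lowest level of 0.223, a median of 2.56, and a highest level of 3.94 CPM in primed cells. Neither protocol overlaps the primed libraries. The log2 fold change was 3.45 (SE 0.50, adjusted p = 3.6e-05) in t2iLGöY and 2.11 (SE 0.58, adjusted p = 0.0064) in LCDM (EPS), and the latter did not pass a test against a minimum log2 fold change of 1 (adjusted p = 0.0575). In 4i/L/b and TL2i all libraries lie above the primed ones, at 5.35 to 8.07 and 4.95 to 6.51 CPM, but the differences did not pass the test (log2 fold change 1.38, adjusted p = 0.0833, and 1.23, adjusted p = 0.126). The former passed with DESeq2 (adjusted p = 0.0426), without primed J3 (adjusted p = 0.048), and against the K libraries alone (adjusted p = 0.0408), and both passed with all 8 groups in one fit (adjusted p = 0.0187 and 0.0403). In NHSM-v, TL-CDK8i, and E-NHSM the levels overlapped the primed range.

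The protocols were then compared with one another, in a single fit of all 8 groups over 14752 genes. Of the 189 differences, 9 factors in 21 pairs of protocols, 137 were called, beside 19.9% to 63.1% of all genes called in a pair. Within a pair, all called factors pointed the same way. For most factors t2iLGöY and LCDM (EPS) stood above NHSM-v, NHSM-v above 4i/L/b and TL2i, and these above TL-CDK8i and E-NHSM. Against E-NHSM, the number of factors higher was 9 in t2iLGöY, 9 in LCDM (EPS), 8 in NHSM-v, 7 in 4i/L/b, and 7 in TL2i, beside 60.9%, 59.6%, 63.1%, 58.5%, and 53.5% of all genes called in either direction. Against TL-CDK8i it was 9 in t2iLGöY, 9 in LCDM (EPS), 8 in NHSM-v, and 5 in 4i/L/b. The shares of all genes called in either direction were 56%, 56.5%, 52.6%, and 44.9%. NEUROG1, NEUROG2, NEUROD1, and NEUROD4 had few or no counts in E-NHSM and TL-CDK8i. INSM1 had few in TL-CDK8i, and POU3F2 had few in E-NHSM. These factors passed the filter of this fit only through other protocols, in which they were higher. Their calls against a protocol in which they were so low therefore say little beyond the levels themselves. LCDM (EPS) was higher than NHSM-v in 7 factors, than 4i/L/b in 8, and than TL2i in 7, beside 47.8%, 40.9%, and 42.4%. The exception shared by these 3 pairs was ONECUT2, and in TL2i and NHSM-v NEUROG1 was the other. The t2iLGöY cells were higher than 4i/L/b and TL2i in all 9 factors, beside 35.2% and 41.9% of all genes. NEUROG1 and NEUROG2 were also low in 4i/L/b, with 8 and 20 counts summed over its libraries, and NEUROG2 in TL2i, with 25. Their calls against these protocols, from any side, likewise say little beyond the levels themselves. NEUROD4 was called in 19 of the 21 pairs, NEUROD1 and POU3F2 in 18, EBF1 and INSM1 in 17, NEUROG2 in 16, EBF3 in 13, NEUROG1 in 10, and ONECUT2 in 9.

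The 2 highest means were those of t2iLGöY and LCDM (EPS) for 9 of the 9 factors, which holds for 11.7% of the 14752 genes. Because the factors were chosen with earlier results of these data known, this share and the one given for NHSM-v below are descriptions only. Between these 2 protocols, 1 factor was called, beside 27.5% of all genes. POU3F2 was higher in LCDM (EPS), with a log2 difference of 2.38 (SE 0.25, adjusted p = 8.28e-09). For INSM1 the difference was 0.92 higher in LCDM (EPS) (SE 0.38, adjusted p = 0.076) and for ONECUT2 1.31 higher in t2iLGöY (SE 0.58, adjusted p = 0.096), and neither passed the test. The remaining 6 factors had log2 differences of 0.66 or less in size, with standard errors of 0.30 to 1.01, and none passed the test.

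NHSM-v was the next highest for 7 of the 9 factors, a pattern that 3.91% of all genes share. Against 4i/L/b, NHSM-v was higher in 5 factors, beside 30.7% of all genes called, namely NEUROG2 (log2 difference 2.94, adjusted p = 0.0117), NEUROD1 (2.07, adjusted p = 0.0138), NEUROD4 (1.77, adjusted p = 0.000682), EBF1 (1.53, adjusted p = 0.0066), and INSM1 (1.40, adjusted p = 0.01). Against TL2i it was higher in 6, the same 5 and EBF3, beside 43.5% of all genes. The exceptions were POU3F2, for which 4i/L/b had a higher mean than NHSM-v without passing the test (adjusted p = 0.477), and ONECUT2, for which 4i/L/b and TL2i both had higher means than NHSM-v (adjusted p = 0.594 and 0.732). Against t2iLGöY, NHSM-v was lower in 6 factors, beside 41.4% of all genes, with EBF3 the furthest apart (log2 difference 3.84, SE 0.35, adjusted p = 3.43e-10). In INSM1, NEUROG1, and NEUROG2 the difference between t2iLGöY and NHSM-v did not pass the test (adjusted p = 0.186, 0.229, and 0.102).

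Between 4i/L/b and TL2i, 0 of the 9 factors were called by edgeR, beside 19.9% of all genes. TL2i and TL-CDK8i share tamoxifen and LIF and differ in their inhibitors, and TL2i was higher in 5 factors, beside 45% of all genes called. These were INSM1 (log2 difference 4.12, adjusted p = 3.75e-06), NEUROD1 (3.52, adjusted p = 0.00417), NEUROG1 (3.35, adjusted p = 0.0498), NEUROD4 (2.79, adjusted p = 6.3e-05), and POU3F2 (1.42, adjusted p = 6.01e-05), while EBF1 was at 9.37 and 11.9 CPM and EBF3 at 5.65 and 4.06 CPM in the 2 protocols. At the lower end, TL-CDK8i was above E-NHSM in 3 factors, beside 50.1% of all genes called, namely POU3F2 (log2 difference 5.01, adjusted p = 2e-11), EBF1 (3.45, adjusted p = 1.24e-06), and NEUROD4 (2.84, adjusted p = 0.00723). The NEUROD4 difference is between groups near the floor, with 8, 2, and 2 counts in the TL-CDK8i libraries and 0, 3, and 0 in those of E-NHSM, and without TL-CDK8i replicate 1 both groups are at or under it.

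**Figure D3:**
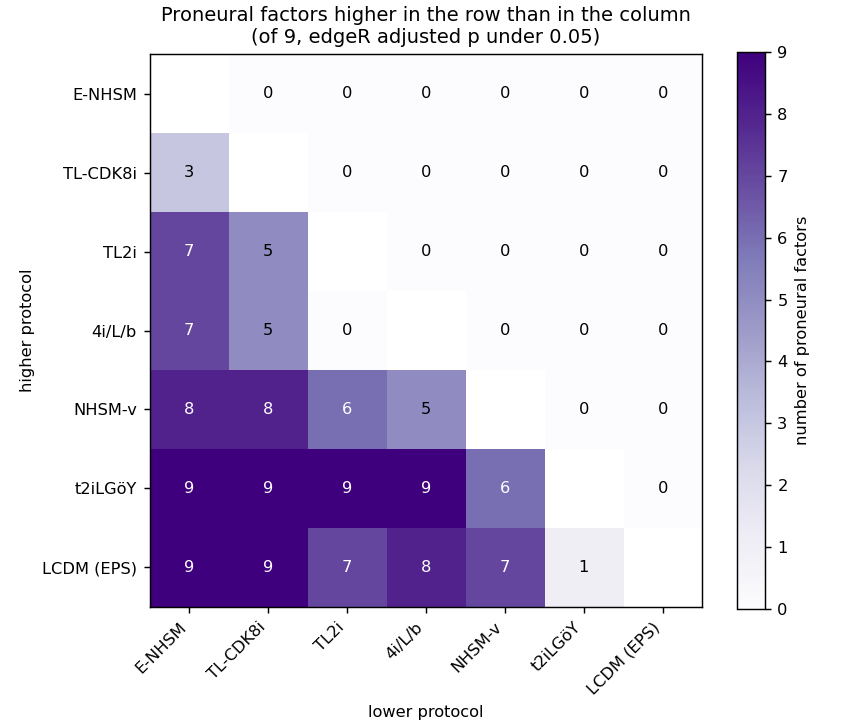
Number of the 9 proneural factors called higher in the protocol of the row than in that of the column, with an adjusted p under 0.05. Filled cells lie below the diagonal, from 0 between TL2i and 4i/L/b to 9 between t2iLGöY and each of E-NHSM, TL-CDK8i, TL2i, and 4i/L/b.

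Other genes of the same pathway were read from lists chosen with these results in view, so that their counts are descriptions. The shares of all tested genes called higher and lower in each protocol, to be read beside these and the marker counts, are those given above. Of 17 other proneural and neural bHLH genes, 8 of the 11 tested were higher in LCDM (EPS) and 7 of the 10 tested in t2iLGöY, with median log2 fold changes of 8.76 and 6.02 over the genes tested, or 4.87 and 4.36 with genes absent from primed cells set to their bounds. The median over all genes tested was 0.03 and 0.02. The members of highest level were NHLH2, NHLH1, and HES6. NHLH1 and NHLH2, bHLH factors of newly born neurons, were at 183 ± 1.40 and 233 ± 18.9 CPM in LCDM (EPS), 74.6 ± 6.55 and 104 ± 14.0 CPM in t2iLGöY (SD, n = 3), and 0.395 ± 0.483 and 0.152 ± 0.320 CPM in primed cells (SD, n = 6). HES6, which promotes neuronal differentiation by opposing HES1, rose from 2.13 CPM in primed cells to 145 CPM in LCDM (EPS), 46.1 CPM in t2iLGöY, 34.8 CPM in NHSM-v, and 29.3 CPM in 4i/L/b (adjusted p = 1.81e-07, 2.42e-05, 8.01e-05, and 0.000335).

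The relatives of a factor did not all follow it. Of 8 close paralogs, 6 were tested in t2iLGöY and in LCDM (EPS), and all 6 were higher in both. EBF2 was at 63.6 CPM in LCDM (EPS) and 28.8 CPM in t2iLGöY against 3.98 CPM in primed cells, but it also reached 58.95 CPM in E-NHSM (log2 fold change 3.84, adjusted p = 3.52e-06), the protocol in which EBF1 was lowest. EBF4 had its highest means in 4i/L/b, at 29.3 ± 3.89 CPM, and in NHSM-v, at 23.1 ± 3.28 CPM (SD, n = 3). It was close to the latter in t2iLGöY, at 20.98 ± 4.44 CPM, and in LCDM (EPS), at 20.6 ± 2.95 CPM (SD, n = 3). In each of these protocols EBF4 was called higher than in primed cells, which were at 1.35 CPM (adjusted p at most 0.00219). POU3F3 was at 245 CPM in LCDM (EPS) and 23.2 CPM in t2iLGöY, against 0.107 CPM in primed cells, so that this relative of POU3F2 also stood highest in LCDM (EPS). ONECUT3 and INSM2 had no count in primed cells and were tested in no comparison.

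The E proteins TCF3, TCF4, and TCF12, with which proneural bHLH factors pair, were present in all groups. In primed cells they were at 220.2, 178, and 159.8 CPM. Of the 3, TCF12 rose the most, to 972 CPM in LCDM (EPS), 551 CPM in NHSM-v, and 428 CPM in t2iLGöY (log2 fold change 2.61, 1.76, and 1.45, adjusted p = 1.67e-11, 5.48e-10, and 9.97e-09). TCF3 fell by 1.03 on the log2 scale in TL-CDK8i (adjusted p = 2.44e-06), and its other differences and those of TCF4 were smaller in size.

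Of 11 genes that restrain proneural factors, the HES, HEY, and ID families and REST, 5 were higher and 5 lower in LCDM (EPS), and 8 were higher and 1 lower in t2iLGöY. The one that fell in t2iLGöY was REST, the repressor of neuronal genes in non-neuronal cells. Its level was 231 CPM in primed cells, 131 CPM in t2iLGöY (log2 fold change -0.79, adjusted p = 0.000344), and 101 CPM in LCDM (EPS) (-1.19, adjusted p = 1.14e-05), and it also fell in NHSM-v and 4i/L/b (-0.67 and -0.62, adjusted p = 0.000888 and 0.00226). ID2, which binds E proteins and keeps them from pairing, rose from 15.6 CPM in primed cells to 134 CPM in LCDM (EPS) and 103 CPM in t2iLGöY (adjusted p = 1.34e-09 and 6.52e-09). It was at 84.6 CPM in TL2i, 61.3 CPM in 4i/L/b, and 38.2 CPM in NHSM-v (adjusted p = 6.54e-08, 7.83e-07, and 8.29e-05), so these 3 protocols stand in another order than for most proneural factors. ID1, a gene of the same family, fell in 4i/L/b to 6.14 CPM against 58.7 CPM in primed cells (log2 fold change -3.31, adjusted p = 1.07e-07). It also fell in TL2i, NHSM-v, and LCDM (EPS) (-1.22, -0.79, and -0.48, adjusted p = 0.000132, 0.00275, and 0.0305). In t2iLGöY and E-NHSM it rose (0.63 and 0.80, adjusted p = 0.00866 and 0.000943).

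Of 16 genes known to lie downstream of proneural factors, all were tested in LCDM (EPS) and t2iLGöY, and 14 and 12 were higher and 1 and 2 lower. In NHSM-v 8 of 14 were higher and 1 lower, in 4i/L/b 10 of 15 and 2, and in TL2i 8 of 14 and 2. In E-NHSM 3 of 12 were higher and 1 lower, and in TL-CDK8i 3 of 12 and 3. The TL-CDK8i counts stand beside 22.3% of all tested genes called higher and 23.8% called lower. Of the 3 of highest level, only CBFA2T2 rose in both LCDM (EPS) and t2iLGöY. RGS16, a regulator of G-protein signalling, fell from 289 CPM in primed cells to 40.5 CPM in LCDM (EPS) and 34.7 CPM in t2iLGöY but rose to 797 CPM in 4i/L/b (log2 fold change -2.83, -3.03, and 1.42, adjusted p = 7.76e-11, 9.67e-11, and 7.86e-09). RND2, a small GTPase that NEUROG2 uses to set neurons migrating, was at 67.2 CPM in primed cells, fell in t2iLGöY, TL-CDK8i, 4i/L/b, TL2i, and NHSM-v (log2 fold change -0.45, -0.56, -1.17, -1.19, and -1.82, adjusted p at most 0.023), rose in E-NHSM (0.68, adjusted p = 0.000734), and was at 76.1 CPM in LCDM (EPS) (adjusted p = 0.273). CBFA2T2, a co-repressor, rose from 43.8 CPM in primed cells to 112 CPM in LCDM (EPS) and 83.2 CPM in t2iLGöY (adjusted p = 1.68e-06 and 0.0001). DLL1, the Notch ligand of nascent neurons, is named with its values known. It was at 239 CPM in LCDM (EPS), 86.6 CPM in t2iLGöY, and 1.16 CPM in primed cells, and it was called higher in every protocol. Its level was 28.0 CPM in 4i/L/b, 25.8 CPM in TL2i, and 17.8 CPM in NHSM-v. In E-NHSM it was at 16.5 CPM (log2 fold change 3.77, adjusted p = 8.63e-05), and in TL-CDK8i at 5.21 CPM (2.08, adjusted p = 0.0496).

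Markers of neurons moved with the proneural factors. The summed level of 12 neuron markers was 367 to 461 CPM in primed libraries and 323 to 363 CPM in E-NHSM, and it was 658 to 685 CPM in TL2i, 1026 to 1310 CPM in TL-CDK8i, 1124 to 1259 CPM in 4i/L/b, 1808 to 1942 CPM in NHSM-v, 3193 to 3581 CPM in t2iLGöY, and 4719 to 5154 CPM in LCDM (EPS). In LCDM (EPS) and t2iLGöY, 10 of the 12 were higher and 1 lower than in primed cells. DCX, a microtubule protein of migrating neurons, was at 853 and 631 CPM there and at 2.46 CPM in primed cells. SYT1, a synaptic vesicle protein, was the one that fell, from 140.03 to 42.1 and 69.6 CPM. TL-CDK8i had a higher sum than TL2i, though NEUROG1, NEUROD1, NEUROD4, INSM1, and POU3F2 were lower in it. NEFL and NEFM, the neurofilament genes, were at 188 and 278 CPM in TL-CDK8i and at 17.4 and 31.7 CPM in TL2i.

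Among 10 neural progenitor markers, 8 were higher and 0 lower in LCDM (EPS), 6 and 2 in t2iLGöY, and 5 and 3 in NHSM-v, and their sums, dominated by NES, were 4142 to 4260 CPM, 2252 to 2537 CPM, and 2216 to 2232 CPM, against 2622 to 2846 CPM in primed libraries. SOX1 was at 193 CPM in LCDM (EPS) and 13.2 CPM in t2iLGöY, and PAX6 was at 66.5 and 155 CPM. HES5 was at 0 in the primed and E-NHSM libraries. Of 10 markers of sensory ganglia, placodes, and neural crest, 8 were higher and 1 lower in t2iLGöY, and 5 and 1 in LCDM (EPS). FOXD3 was the one that fell in both (log2 fold change -1.43 and -5.78, adjusted p = 0.000736 and 1.73e-06). The sums were 657 to 836 and 347 to 352 CPM, against 27.6 to 53.3 CPM in primed libraries. In LCDM (EPS), TFAP2B made up most of the sum, at 265 CPM. The other sums were 8.67 to 15.03 CPM in E-NHSM, 49.1 to 66.8 CPM in TL-CDK8i, 51.5 to 59.1 CPM in NHSM-v, 115 to 139 CPM in 4i/L/b, and 243 to 327 CPM in TL2i. TLX3 was at 0 in the primed and E-NHSM libraries. The part of these cell types in the levels of the proneural factors was not tested.

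Markers of other cells that use these factors differed by cell type. Of the 10 endocrine markers, 5 of the 5 tested were higher in t2iLGöY and 3 of the 4 tested in LCDM (EPS), and 0 were lower. INS was at 0 in all groups, GCG was at 0 in all but LCDM (EPS), and PAX4 and NKX2-2 were at 0 in NHSM-v, t2iLGöY, and LCDM (EPS), where INSM1 and NEUROD1 were highest. The endocrine sum was 149 to 161 CPM in t2iLGöY, 76.6 to 90.7 CPM in LCDM (EPS), and 31.6 to 44.9 CPM in primed libraries, carried mainly by CHGB, CHGA, and, outside primed cells, SCG2, which neurons also express, and it was between 5.49 and 61.2 CPM in the other protocols. The 5 B-cell markers in the tables summed to at most 6.48 CPM in any library, and CD79B was at 0 in t2iLGöY and LCDM (EPS), where EBF1 was highest. The 7 stromal markers had their highest sums in 4i/L/b, at 11592 to 15057 CPM, followed by TL-CDK8i (8665 to 11211 CPM), NHSM-v (7841 to 8371 CPM), TL2i (2949 to 5731 CPM), t2iLGöY (3417 to 4021 CPM), primed (1136 to 2407 CPM), LCDM (EPS) (769 to 999 CPM), and E-NHSM (405 to 451 CPM). COL1A1 and COL1A2 dominated these sums. LUM and DCN were at 0 in primed, E-NHSM, and t2iLGöY. In LCDM (EPS), 4 of the 7 were lower and 2 higher, namely LUM and DCN, at 3.40 and 7.12 CPM (adjusted p = 0.000634 and 7.99e-05). The stromal sum was below every primed library in LCDM (EPS) and above every primed library in t2iLGöY, and EBF1 was at 60.9 ± 5.07 and 59.2 ± 17.7 CPM there (SD, n = 3). The part of stromal and endocrine cells in these levels was not tested.

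The pluripotent markers were not in the reverse order of the proneural factors. Their sum was 5535 to 6242 CPM in primed libraries, 6699 to 6772 CPM in E-NHSM, 1610 to 2223 CPM in TL-CDK8i, 517 to 603 CPM in TL2i, 453 to 477 CPM in LCDM (EPS), 198 to 207 CPM in t2iLGöY, 180.2 to 185 CPM in 4i/L/b, and 130.4 to 147 CPM in NHSM-v. In LCDM (EPS), SOX2, which neural progenitors also use, made up most of it, at 329 CPM. The lowest sum was that of NHSM-v, whereas the highest levels of proneural factors were in t2iLGöY and LCDM (EPS). The part of pluripotent cells in the levels of the proneural factors was not tested.

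**Figure D4:**
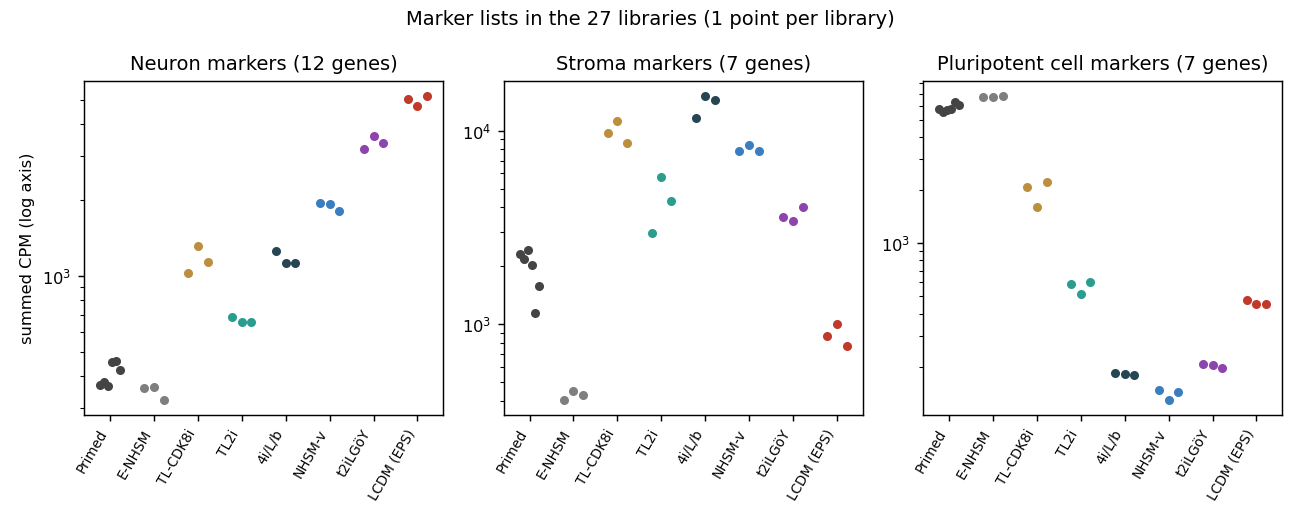
Summed CPM of the neuron, stromal, and pluripotent cell markers in each of the 27 libraries, on log axes with a range of their own, with the 8 groups along the horizontal axis and a point per library. The neuron sum rises towards t2iLGöY and LCDM (EPS), the stromal sum is highest in 4i/L/b, and the pluripotent sum is highest in primed and E-NHSM libraries.

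The factors varied together over the 27 libraries. Pearson's r of log2 CPM between 2 factors ran from 0.631, between EBF3 and POU3F2, to 0.976, between NEUROD1 and NEUROD4, with a median of 0.819 over the 36 pairs. The points share libraries and fall into 8 groups, so these values describe the differences between groups and not a relation within them. Among all genes, those with the pattern most like that of NEUROD1 were ADCYAP1, a neuropeptide (r = 0.981), DPYSL2, an axon guidance protein (r = 0.977), and NEUROD4 itself. ADCYAP1 also came first for NEUROG1 (r = 0.937) and second for NEUROG2 (r = 0.951), after B3GALT2 (r = 0.962). NHLH1 and TH were next for NEUROG1 (r = 0.935 and 0.931), PAX6 for NEUROG2 (r = 0.948), and DPYSL2 and SLITRK1 for NEUROD4 (r = 0.978 and 0.977). For INSM1 the closest were CSRNP3, APC2, and MLLT6 (r = 0.967, 0.964, and 0.963), and for POU3F2 NAT8L, LRRC4B, and ZCCHC14 (r = 0.967, 0.967, and 0.964). For EBF1 they were STMN2, a protein of growing axons, SMARCD3, and DDR1 (r = 0.954, 0.935, and 0.934), and for EBF3 SMPD3 and KIF5A (r = 0.950 and 0.940). ONECUT2 was matched least closely, by DAP, UNC5A, and CHODL (r = 0.891, 0.861, and 0.849).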

How the data were processed

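The authors prepared directional mRNA libraries from 200 ng of total RNA and sequenced single reads of 75 bases. They deposited raw read counts per gene symbol, with no pooling. The submitters' processing notes name bcl2fastq, cutadapt, HISAT2, and HTSeq; versions, genome build, annotation, and strand setting are not given in the sources used here, so no positions are printed and reads shared by paralogs or antisense genes cannot be told apart.

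R 4.3.3 with edgeR 4.0.16 (limma 3.58.1) computed TMM scaling, CPM, and the quasi-likelihood test on genes kept by filterByExpr, with Benjamini-Hochberg adjustment over all genes tested and a threshold of 0.05. Each protocol was fitted with the 6 primed libraries alone; pairs of protocols were contrasts in a fit of all 8 groups. Bounds divide a protocol's mean CPM by the mean CPM that 3 counts are worth in the primed libraries. Patterns were matched by Pearson's r of log2 CPM with a prior count of 2. The procedure was tested on simulated counts. The 36 pairs of libraries of the same group differed beyond sampling noise (chi-square per gene 4.06 to 30.8), so none was merged. Alternatives were DESeq2 1.42.0, upper-quartile scaling, no filter, a stricter filter (10 or more counts in each library), a minimum log2 fold change of 1, all 8 groups in one fit, a replicate block, either primed letter alone, each library left out, and for pairs a fit of those 2 groups.

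The factors and all lists were chosen with earlier results of these data known. Named are the 9 factors, the 3 genes of highest mean CPM of each pathway list, the 3 genes most alike in pattern, and markers; other list genes were named after their values were seen. Some genes that these rules name are not reported here. All 27 columns were used.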

Additional observations from a re-analysis of the deposited data

Results flagged for a closer look

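NEUROG2 in the primed group had a library apart from the others. K1 held 11 counts (0.941 CPM) and the other 5 primed libraries held 0, so that the gap took the whole range of the group (ratio 1). The rule flags about 1 in 20 groups of this size by chance only where values follow a normal distribution. A gene at 0 in all libraries but a single one always gives a ratio of 1, so that rate does not hold for such low counts. A count of this kind was not rare in these libraries, since 258 of the 1182 genes whose highest primed count was 10 to 20 had all their reads in a single primed library. The fold changes of NEUROG2 without K1 stand beside its levels above.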

How the results depend on the processing

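Log2 fold changes of single factors against primed cells were tallied only where the factor was tested in both the main and the other setting. Factors that gained or lost the test itself enter only the counts of factors called below. Of the tallied log2 fold changes, 757 kept their side of the threshold, 14 gained a call, and 8 lost one. Among those called in either setting, 0 changed sign. Some that were called in neither did change sign. ONECUT2 in E-NHSM went from -0.39 to 0.02 with the J libraries alone, and EBF3 in 4i/L/b from -0.28 to 0.43 with the K libraries alone. The number of factors called stayed at 9 in t2iLGöY and LCDM (EPS) except with at least 10 counts in every library, which left only EBF1 and EBF3 to test. The counts were then 2 in both, 1 in NHSM-v, and 0 in 4i/L/b, TL2i, and TL-CDK8i. With no filter on low counts, the counts were 5 in 4i/L/b and TL2i, 3 in TL-CDK8i, and 2 in E-NHSM. With DESeq2 they were 5, 5, and, in E-NHSM, 2. With all 8 groups in one fit they were 6 in 4i/L/b and TL2i, 4 in TL-CDK8i, and 3 in E-NHSM. With the J libraries alone they were 2 in E-NHSM and 2 in TL-CDK8i, and with the K libraries alone 0 in E-NHSM, 5 in 4i/L/b, and 2 in TL-CDK8i. The minimum log2 fold change left 0 in E-NHSM. Of the calls in E-NHSM, 1 was higher and the rest lower with no filter, with DESeq2, and in the fit of all 8 groups. The causes were not tested, apart from the fewer genes tested under the stricter filter.

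Leaving out each library in turn gave 0 to 1 calls in E-NHSM (a fall, except without E-NHSM replicate 1, where EBF1 was lost and another factor was higher), 6 to 7 in NHSM-v, 3 to 4 in 4i/L/b and TL2i, 9 in t2iLGöY and LCDM (EPS), and 1 to 2 in TL-CDK8i, the 2 coming without primed J3, with EBF1 added. Between pairs of protocols it gave 130 to 143 calls, and the other alternatives gave 107 (minimum log2 fold change) to 141 (fits of 2 groups). The replicate numbers did not pair the samples: the 21 same-number correlations of deviations ran from -0.04 to 0.02. With the replicate block, the call in E-NHSM was lost (0 called; EBF1 log2 fold change -2.38, adjusted p = 0.0532), and 135 of the differences between protocols were called. Low counts limit NEUROG1, NEUROG2, NEUROD1, NEUROD4, and INSM1 in the primed and TL-CDK8i libraries, and the same factors except INSM1 in E-NHSM, where a count of 0 allows up to 3. They also limit POU3F2 in the primed and E-NHSM libraries, which held at most 10 and 11 counts of it.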
